A study of Homo sapiens with 4 samples.

Results

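The genes described here are 9 collagen genes outside the fibril-forming class: COL6A1, COL6A2 and COL6A3 of type VI collagen, and COL7A1, COL8A1, COL12A1, COL13A1, COL16A1 and COL18A1. They were taken by gene symbol, and all 9 were among the 23228 gene rows of each library. RNA sequencing covered Daoy, an established human medulloblastoma line, in 2 libraries of cells stably expressing a PELP1 shRNA and 2 libraries of cells stably expressing a control shRNA. Both groups carried a lentiviral shRNA vector and were grown in the same serum-containing medium. How many PELP1 hairpins were used, whether the lines were clones and whether the duplicates came from separate cultures are not given in the labels, so p-values reflect only how these libraries vary, which may be technical variation. PELP1 is a scaffold protein that serves as a coregulator of nuclear receptors, and the series title links it to the NF-κB pathway and medulloblastoma progression.

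Collagens are secreted or membrane-bound proteins whose chains wind into a triple helix built of repeats that begin with glycine. The non-fibrillar members do not form the thick banded fibrils of types I and III. They make pericellular microfilaments (type VI), anchoring fibrils under epithelia (type VII), hexagonal networks (type VIII), linkers on the surface of fibrils (types XII and XVI, of the class known as FACIT), membrane-spanning adhesion molecules (type XIII) and proteoglycans of basement membranes (type XVIII). In normal brain, collagens are found mostly in vessel walls and the meninges.

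The libraries held 29221640 and 26760085 counts in genes with the PELP1 shRNA, against 24052542 and 26629578 with the control shRNA. PELP1 itself checked the labels. It stood at 55.6 and 49.7 CPM in the PELP1 shRNA libraries and at 168 and 185 CPM in the control shRNA libraries, 29.8% of the control level (log2 fold change −1.75 ± 0.05, SE). CPM values here are counts scaled for library size and, by TMM factors, for composition. Among 10 neural and medulloblastoma markers, VIM averaged 3894 ± 0.46 and 5548 ± 96.5 CPM (SD, n = 2 each) in the PELP1 shRNA and control shRNA libraries. GLI2, a transcription factor of Hedgehog signalling, fell to 23.5 ± 1.63 CPM with the PELP1 shRNA, against 38.5 ± 0.01 CPM with the control shRNA (SD, n = 2 each; −0.71 ± 0.07, SE, FDR = 2.16e-13), a call lost at an assumed biological variation of 20% (adjusted p = 0.128). Of 9 neural and medulloblastoma markers tested, 3 fell, 3 rose and 3 did not pass. DESeq2 called 2 lower and 1 higher, and an assumed variation of 20% left 0 of either. The 3 that rose were PAX6 (0.53, FDR = 1.96e-07), OTX2 (0.48, FDR = 0.0019) and GLI1 (0.80, FDR = 0.033). GLI1 was low, at 1.24 CPM with the PELP1 shRNA and 0.70 CPM with the control shRNA. SOX2, ZIC1, PAX6 and OTX2 were detected in every library, and the granule-lineage factor ATOH1 had at most 3 counts in any.

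With the PELP1 shRNA, 8 of the 9 collagen genes fell and COL13A1 did not pass the test. Of all 14972 genes tested, 58.1% passed the false discovery rate (FDR) threshold of 0.05 and 29.5% passed it in the lower direction, so a fall alone is common in this comparison. Tested against a change of 1.5-fold, 6 of the 9 genes were lower, against 4.90% of all genes lower and 4.74% higher. Those 6 were COL12A1, COL8A1, COL6A2, COL6A1, COL7A1 and COL6A3, in order of the fitted change. The 9 genes were chosen with earlier results of these data known. Their shares beside those of all genes are therefore a description and no test of the 9 as a set. No member rose in the edgeR test, where 28.6% of all genes did. That count was also 0 at an unadjusted p under 0.05, in DESeq2 and in limma-voom. The median log2 fold change of the 9 genes was −0.78, beside 0.002 over all genes tested. All 9 genes passed the filter on low counts. In 8 of the 9 the PELP1 shRNA libraries lay below both control shRNA libraries, which was true of 38.7% of all genes tested.

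**Figure D1:**
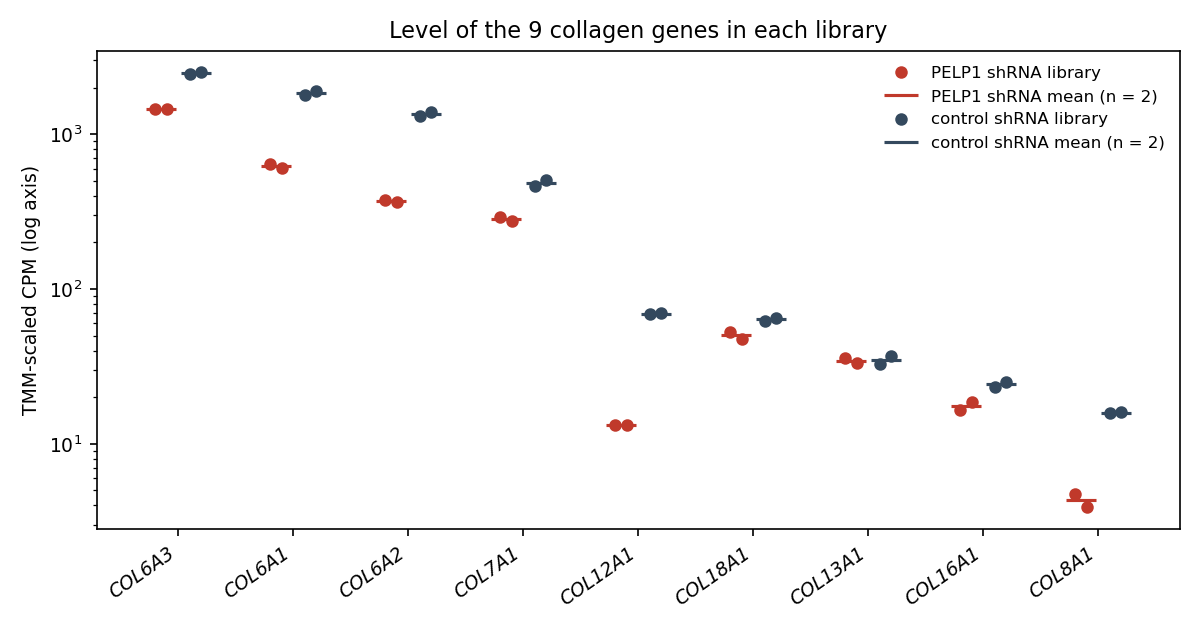
TMM-scaled CPM (log axis) of the 9 genes in each library. Dots are libraries, PELP1 shRNA left and control shRNA right of each gene, and bars are group means (n = 2). COL13A1 is the gene whose groups overlap, and COL12A1 shows the widest gap, 13.2 CPM with the PELP1 shRNA against 69.4 CPM with the control shRNA.

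Type VI collagen is assembled inside the cell from a short chain of COL6A1, a short chain of COL6A2 and a long chain of COL6A3, and is secreted as tetramers that join into beaded microfilaments around cells. Its 3 genes drew many reads. In the control shRNA libraries each had a higher CPM, a value that also grows with transcript length, than 99.8% of tested genes. Together they held 0.255% and 0.251% of all gene counts in the PELP1 shRNA libraries, against 0.538% and 0.559% in the control shRNA libraries. The share was lower in both PELP1 shRNA libraries than in either control shRNA library.

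COL6A1 (hg19, chromosome 21, 47401684 to 47424964, plus strand) had 642 and 607 CPM in the PELP1 shRNA libraries, against 1802 and 1889 CPM in the control shRNA libraries. The 2 groups lay far apart relative to the gap between duplicates, and the level was 33.8% of control (log2 fold change −1.56 ± 0.04, SE, FDR = 1.49e-45). COL6A2 lies 93061 bases further along the same strand (47518026 to 47552762). It had 378 and 366 CPM in the PELP1 shRNA libraries and 1304 and 1392 CPM in the control shRNA libraries. That was the larger fall of the neighbouring pair, to 27.6% of control (−1.86 ± 0.04, SE, FDR = 3.59e-49). COL6A3 (chromosome 2, 238232646 to 238322971, minus strand) had 1453 and 1460.5 CPM in the PELP1 shRNA libraries, against 2431 and 2502 CPM in the control shRNA libraries. The long chain kept 59.1% of its control level (−0.76 ± 0.03, SE, FDR = 6.74e-30). On the log2 scale its fall was smaller than those of both short chains, and its interval (95%, −0.825 to −0.695) did not reach that of COL6A1 (−1.633 to −1.494). A lower count can reflect fewer cells with the transcript or less of it per cell, which these bulk libraries cannot tell apart.

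Because the chains fell by different amounts, their proportions shifted. Ratios within a library do not depend on how libraries are scaled. Per kilobase of annotated exon, COL6A3 stood at 0.582 and 0.619 of COL6A1 in the PELP1 shRNA libraries, against 0.347 and 0.341 in the control shRNA libraries, a ratio 1.75 times as high. Against COL6A2 it stood at 0.953 and 0.989 in the PELP1 shRNA libraries, against 0.462 and 0.446 in the control shRNA libraries, 2.14 times as high. COL6A1 over COL6A2 was 1.64 and 1.60 in the PELP1 shRNA libraries and 1.33 and 1.31 in the control shRNA libraries. In all 3 ratios the groups did not overlap. With 2 libraries against 2, the smallest p of an exact two-sided permutation test is 0.33, so the ratios are given as a description, without a test. The long chain made up 26.6% and 27.6% of the 3 chains with the PELP1 shRNA and 16.5% and 16.2% with the control shRNA. The size of a ratio depends on the length assigned to each gene, but its change between groups does not. For the shares of the 3 chains, both the size and the change depend on that length.

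**Figure D2:**
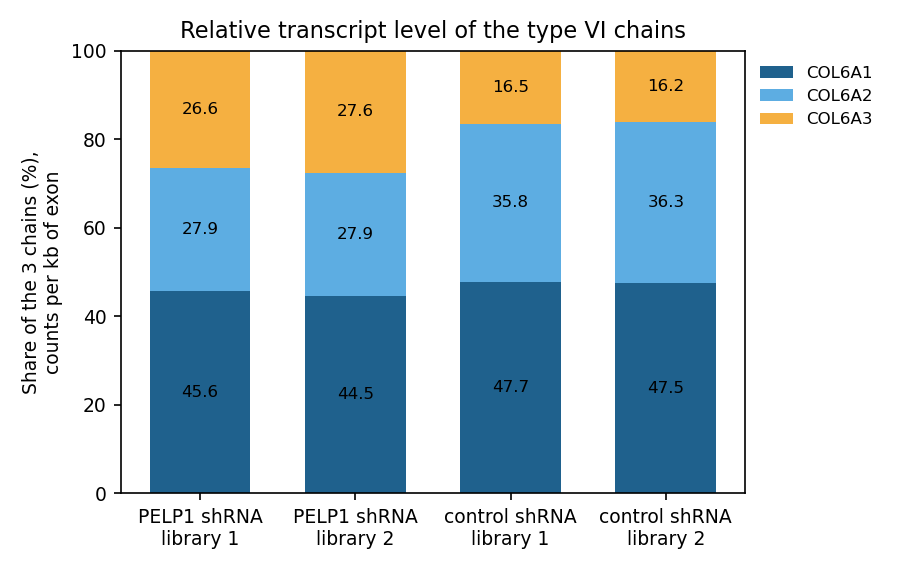
Share of COL6A1, COL6A2 and COL6A3 in the sum of the 3, in counts per kilobase of exon, for each library. The COL6A3 segment is 26.6% and 27.6% in the PELP1 shRNA libraries and 16.5% and 16.2% in the control shRNA libraries, while COL6A2 holds 27.9% in both PELP1 shRNA libraries against 35.8% and 36.3% in the control shRNA libraries.

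Promoter windows of RefSeq (GRCh38.p14, 250 bases before to 50 after the annotated start) were matched for 7 of the 9 genes, all but COL6A1 and COL8A1. The windows of COL6A2 and COL6A3 are shown because these chains differed most within type VI. Capitals mark the GC box GGGCGG and the TATA box TATAAA, searched on both strands. Both lines run 5′ to 3′ on the strand of the gene, COL6A2 at chr21:46097862-46098161 (plus) and COL6A3 at chr2:237414115-237414414 (minus).
COL6A2: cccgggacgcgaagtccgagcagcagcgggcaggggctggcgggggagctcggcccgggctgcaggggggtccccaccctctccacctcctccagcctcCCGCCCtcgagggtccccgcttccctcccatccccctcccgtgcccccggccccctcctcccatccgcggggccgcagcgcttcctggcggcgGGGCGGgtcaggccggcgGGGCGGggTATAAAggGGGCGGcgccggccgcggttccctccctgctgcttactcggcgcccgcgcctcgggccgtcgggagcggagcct
COL6A3: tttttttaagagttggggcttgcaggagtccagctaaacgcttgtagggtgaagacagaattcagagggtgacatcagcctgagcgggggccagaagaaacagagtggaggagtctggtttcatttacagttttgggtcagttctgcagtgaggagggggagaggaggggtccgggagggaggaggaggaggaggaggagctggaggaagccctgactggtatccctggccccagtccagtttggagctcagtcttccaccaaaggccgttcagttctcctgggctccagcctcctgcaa
COL6A2 held 4 GC boxes, first bases at −151, −58, −40 and −24 from the start, and a TATA box at −32. COL6A3 held neither motif. The GC content was 79.3% for COL6A2 and 56.3% for COL6A3, beside a median of 58.7% over all windows. A GC box was found in 45.0% of all 35116 windows and a TATA box in 11.5%, and among the 7 genes in 5 and 4. The TATA box matches lay at −32 in COL6A2, −124 in COL7A1 (opposite strand), −204 in COL18A1 and −236 in COL13A1. A gene was counted if any of its windows matched. COL18A1 had windows at chr21:45404915-45405214 and chr21:45455272-45455571, and only the latter held a TATA box, at −204. The NF-κB consensus matched in COL6A2 and COL7A1, and in 11.3% of all windows. In COL6A2 its 2 matches, at −186 and −185, overlap each other. The AP-1 site TGANTCA and the CCAAT box CCAAT matched in 0 of the 7 genes and in 7.7% and 34.6% of all windows. These are matches of letters in a fixed window and do not show binding.

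The FACIT genes COL12A1 and COL16A1 both fell, by very different amounts. Type XII collagen bridges fibrils to neighbouring matrix and is found in tissues under tension. COL12A1 (chromosome 6, 75794042 to 75915983, minus strand) had 13.2 and 13.2 CPM in the PELP1 shRNA libraries, from 399 and 363 counts, against 68.8 and 70.1 CPM in the control shRNA libraries, from 1607 and 1803 counts. The duplicates nearly coincided, and the level was 19.0% of control, the largest fall of the 9 genes (log2 fold change −2.39 ± 0.07, SE, FDR = 1.84e-39). Of all genes tested, 0.655% had a lower log2 fold change. COL16A1 (chromosome 1, 32117864 to 32169920, minus strand), whose product binds cells through integrins and associates with small fibrils, had 16.6 and 18.6 CPM in the PELP1 shRNA libraries, against 23.4 and 25.0 CPM in the control shRNA libraries. The groups did not overlap, and the level was 72.8% of control (−0.46 ± 0.08, SE, FDR = 2.91e-06). COL16A1 did not pass the test against 1.5-fold. Per kilobase of exon, COL12A1 over COL16A1 was 0.391 and 0.347 in the PELP1 shRNA libraries, against 1.44 and 1.38 in the control shRNA libraries, so the order of the pair, which was chosen after its values were seen, differed between the groups. The COL12A1 promoter window (chr6:75206004-75206303 of GRCh38.p14, minus strand) is shown because of the size of that fall, with GC boxes in capitals.
COL12A1: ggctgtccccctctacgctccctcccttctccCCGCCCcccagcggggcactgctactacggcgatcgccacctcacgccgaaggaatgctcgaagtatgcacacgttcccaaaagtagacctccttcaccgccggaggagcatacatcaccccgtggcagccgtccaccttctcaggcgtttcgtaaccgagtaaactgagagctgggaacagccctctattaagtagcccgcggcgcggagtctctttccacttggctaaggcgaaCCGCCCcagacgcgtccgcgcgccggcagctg
It held 2 GC boxes, at −218 and 18, no TATA box, and the motif GGAATG bound by TEAD factors at −167. That motif was found in 14.0% of all windows and in 1 of the 7 genes.

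COL8A1 and COL7A1 form assemblies of their own. COL8A1, a short chain of the network in vessel walls and the basement membrane of the corneal endothelium, was the least abundant member, with 4.77 and 3.88 CPM in the PELP1 shRNA libraries, against 15.7 and 16.1 CPM in the control shRNA libraries. These levels rest on 144 and 107 counts with the PELP1 shRNA and on 368 and 413 counts with the control shRNA. The level was 27.2% of control (log2 fold change −1.87 ± 0.12, SE, FDR = 8.04e-22), with the widest SE of the 9 genes. It lies on the plus strand of chromosome 3 (99357319 to 99518070), and another gene covers 92 of its 9408 exonic bases on the opposite strand. COL7A1, the sole chain of anchoring fibrils, had 292 and 274 CPM in the PELP1 shRNA libraries, against 466 and 507 CPM in the control shRNA libraries. Its level was 58.3% of control (−0.78 ± 0.04, SE, FDR = 1.19e-24), close to that of COL6A3. It is on the minus strand of chromosome 3 (48601506 to 48632762), and 36 exonic bases are shared with MIR711.

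COL13A1 and COL18A1 changed least. Type XIII collagen spans the plasma membrane, can be shed by furin-like proteases, and is required at the neuromuscular junction. COL13A1 (chromosome 10, 71561636 to 71724031, plus strand) had 35.6 and 33.2 CPM in the PELP1 shRNA libraries, against 32.9 and 36.7 CPM in the control shRNA libraries. The groups overlapped, and the fitted log2 fold change was −0.02 ± 0.07 (SE, FDR = 0.857), with a 95% interval of −0.15 to 0.118. A change of the size seen in the other 8 genes lies outside that interval. The interval rests on the spread of these duplicates, which may be technical, and does not cover variation between cultures. Its promoter window (chr10:69801656-69801955 of GRCh38.p14, plus strand) is shown as that of the member without a call, with the TATA box in capitals.
COL13A1: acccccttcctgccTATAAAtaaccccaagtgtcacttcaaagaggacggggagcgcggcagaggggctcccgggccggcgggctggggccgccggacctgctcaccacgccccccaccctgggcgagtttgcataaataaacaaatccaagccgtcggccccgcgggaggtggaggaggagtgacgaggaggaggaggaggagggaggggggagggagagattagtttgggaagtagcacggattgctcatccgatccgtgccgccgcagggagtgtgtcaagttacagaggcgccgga
It held 1 TATA box, far upstream at −236, and no GC box. COL18A1 encodes the core protein of a basement membrane heparan sulfate proteoglycan whose C-terminal fragment, endostatin, inhibits angiogenesis. It had 52.8 and 47.6 CPM in the PELP1 shRNA libraries, against 62.5 and 64.8 CPM in the control shRNA libraries. The groups did not overlap, and the level was 78.8% of control (−0.34 ± 0.06, SE, FDR = 5.46e-07), short of the test against 1.5-fold. COL18A1 lies on the plus strand of chromosome 21 (46825080 to 46933634), 468049 bases before COL6A1. The folate transporter gene SLC19A1, on the opposite strand, covers 1563 of its 8464 exonic bases, and no source used here gives the strand setting of the counting. SLC19A1, named for this overlap, moved with it, at 34.0 and 31.4 CPM in the PELP1 shRNA libraries and 40.8 and 40.4 CPM in the control shRNA libraries (−0.31 ± 0.07, SE, FDR = 4.94e-05). The part of shared reads in the COL18A1 value was not tested.

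The 9 genes covered a wide range of levels. In CPM per kilobase of exon, the control shRNA order was COL6A1 at 333 ± 11.0, COL6A2 at 253 ± 11.6, COL6A3 at 115 ± 2.34 and COL7A1 at 43.7 ± 2.64 (SD, n = 2 each). COL18A1 followed at 7.52, COL12A1 at 3.68, COL13A1 at 3.02, COL16A1 at 2.61 and COL8A1 at 1.69. In the PELP1 shRNA libraries the order was COL6A1 at 113 ± 4.45, COL6A2 at 69.7 ± 1.57, COL6A3 at 67.7 ± 0.25 and COL7A1 at 25.5 ± 1.14 (SD, n = 2 each). Below them stood COL18A1 at 5.93, COL13A1 at 2.99, COL16A1 at 1.90, COL12A1 at 0.70 and COL8A1 at 0.46. Per kilobase of all exons, COL12A1 stood above COL13A1 and COL16A1 with the control shRNA and below both with the PELP1 shRNA. No neighbours in either order overlapped between libraries. With the length of the longest transcript in place of all exons, COL6A3 (138 ± 0.51) stood above COL6A2 (108 ± 2.44) in the PELP1 shRNA libraries. COL12A1 (5.92 ± 0.08 with the control shRNA) then stood below COL13A1 in both groups, while its order with COL16A1 still differed between them. On that length COL13A1 also stood above COL18A1, at 10.1 ± 0.50 and 7.62 ± 0.56 in the PELP1 shRNA libraries, and at 10.2 ± 0.81 and 9.67 ± 0.25 in the control shRNA libraries, where the pair overlapped.

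**Figure D3:**
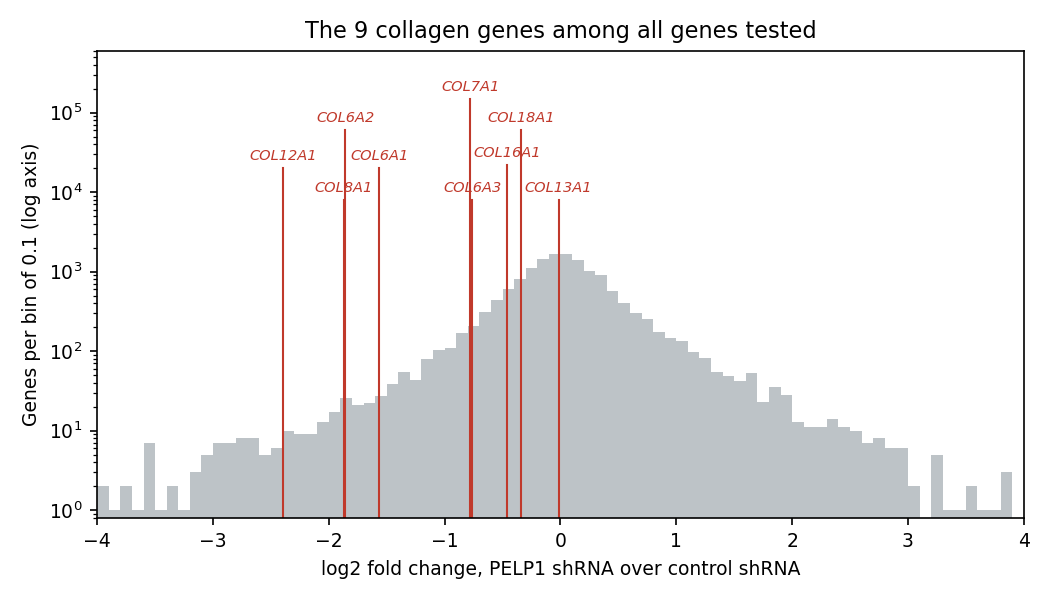
Distribution of log2 fold changes (PELP1 shRNA over control shRNA) over the 14972 genes tested, in bins of 0.1 with a log count axis. Red lines mark the 9 collagen genes, which run from −2.39 for COL12A1 to −0.02 for COL13A1. A further 31 genes below −4 and 11 above 4 lie outside the axis.

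Exon lengths were not used in choosing the 9 genes. Of 424 internal coding exons in their annotated main transcripts, 238 (56.1%) have a length divisible by 9, the length of 1 glycine repeat in bases. Over 16424 protein-coding genes the share was 14.2%. In fibrillar collagen genes it was higher than in the 9, 84.2% of 627 exons in 11 genes, and in type IV collagen genes it was 47.9% of 284 exons in 6 genes. Within the 9 it ranged from 20.6% in COL12A1, whose product is mostly non-collagenous, to 73.7% in COL13A1. COL8A1 has 0 internal coding exons, and COL7A1 has the most exons of the 9, 119.

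Other members of the family moved in both directions. Of 18 other non-fibrillar collagen genes, type IV aside, 9 had enough counts to test. The other 9 had at most 13 counts in any library. Among those tested 4 fell, 3 rose and 2 missed the threshold, and their median log2 fold change was −0.56. That median rests on few genes. It was 0.153 without control shRNA replicate 2, −0.165 without control shRNA replicate 1, −0.15 without PELP1 shRNA replicate 2 and −0.021 over all 18 with no low-count filter. COL8A2, the partner chain of COL8A1, fell, with 4.55 ± 0.27 CPM in the PELP1 shRNA and 11.0 ± 0.58 CPM in the control shRNA libraries (SD, n = 2 each; −1.27 ± 0.13, SE, FDR = 1.16e-13). COL6A6, an alternative long chain of type VI, had 0.54 ± 0.04 and 1.34 ± 0.14 CPM (SD, n = 2 each; −1.32 ± 0.34, SE, FDR = 0.00065) in the PELP1 shRNA and control shRNA libraries. COL14A1, the FACIT gene closest in build to COL12A1, had 0.74 CPM with the PELP1 shRNA and 2.17 CPM with the control shRNA (−1.54 ± 0.28, SE, FDR = 2.76e-06). The transmembrane collagen gene COL23A1, of the class of COL13A1, rose to 12.3 ± 0.15 CPM with the PELP1 shRNA, against 7.08 ± 0.33 CPM with the control shRNA (SD, n = 2 each; FDR = 9.79e-09). COL9A3, a cartilage FACIT gene, rose to 2.84 CPM with the PELP1 shRNA, against 0.90 CPM with the control shRNA (1.66 ± 0.26, SE, FDR = 8.99e-08). COL17A1 (−0.56) and COL9A2 (0.90) passed with all libraries. The call of COL17A1 was lost when PELP1 shRNA replicate 2 (adjusted p = 0.424) or control shRNA replicate 2 (0.156) was left out, with DESeq2 (0.194) and with library size alone (0.0542). COL9A2 missed it without control shRNA replicate 1 (adjusted p = 0.109) and with DESeq2 (0.0622). COL15A1, the closest relative of COL18A1, stood at −0.79 (FDR = 0.0699) and at −1.33 without control shRNA replicate 1 (adjusted p = 0.00526).

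Type IV collagen, the sheet-forming collagen of basement membranes, went the other way. Of 6 genes, 5 rose, 0 fell and COL4A3 missed the threshold (median 0.58). The count of falls was 0 at an unadjusted p under 0.05 as well, and in DESeq2 and limma-voom. COL4A2 averaged 1070 ± 10.9 CPM with the PELP1 shRNA and 704 ± 21.5 CPM with the control shRNA (SD, n = 2 each; 0.60 ± 0.03, SE, FDR = 4.00e-24), and COL4A1 averaged 599 ± 2.74 CPM with the PELP1 shRNA and 434 ± 14.0 CPM with the control shRNA. COL4A6 (0.55, FDR = 0.00202) missed the threshold with DESeq2 (adjusted p = 0.0626) and without control shRNA replicate 2 (0.145). Of 9 fibrillar collagen genes tested, 7 fell, 1 rose and 1 missed the threshold (median −0.83). Among them the fall of COL5A1 (−0.83 ± 0.04, SE) was of the size of those of COL6A3 and COL7A1, and COL5A2 (−2.08 ± 0.06, SE) lay between COL6A2 and COL12A1. COL5A3 (−0.33, FDR = 0.0443) is one of the 7, and its call was lost in most alternatives, among them DESeq2 (adjusted p = 0.241). If biological variation between cultures were 20%, in place of the 2.99% estimated from these duplicates, 10 of the 20 collagen genes called outside the 9 would miss the threshold, type IV genes other than COL4A4 among them (adjusted p = 0.087 to 0.879).

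**Figure D4:**
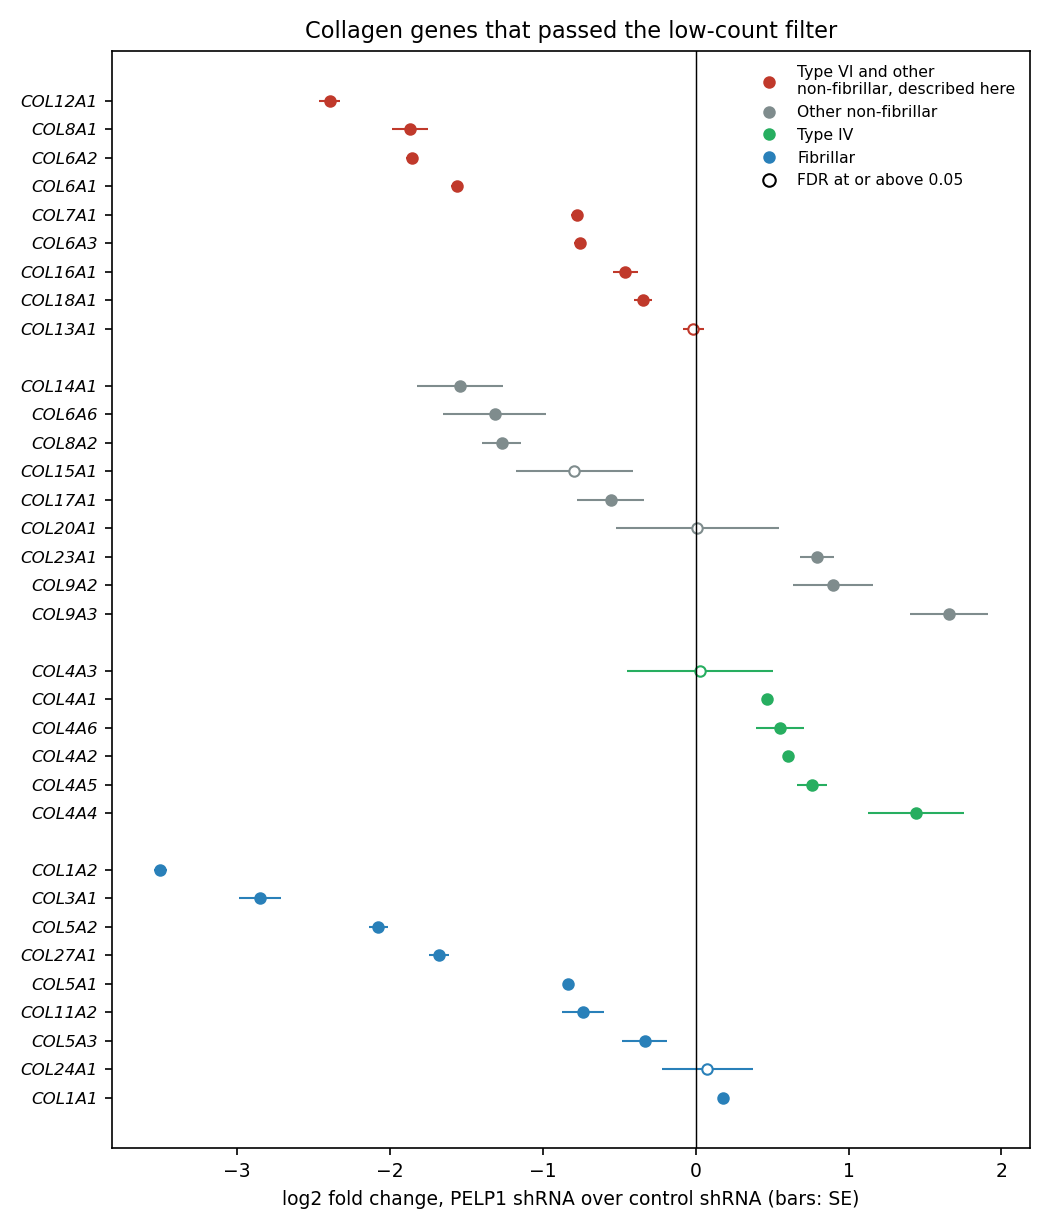
Log2 fold change (PELP1 shRNA over control shRNA) of every collagen gene that passed the low-count filter, by class, with SE bars. Open circles did not pass FDR 0.05. The 9 genes described here and the fibrillar genes lie mostly left of 0, with medians of −0.78 and −0.83, and the type IV genes right of it, with a median of 0.58.

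Genes whose products bind, build or break down these collagens were taken from lists chosen by function. All 10 collagen receptor genes passed the test, 6 lower and 4 higher (median −0.30). ANTXR1 was among the 4 higher, by a small amount (0.19 ± 0.04, SE, FDR = 0.000149). It averaged 153 ± 4.7 CPM with the PELP1 shRNA and 134 ± 5.1 CPM with the control shRNA (SD, n = 2 each). CSPG4, a transmembrane proteoglycan that binds type VI collagen, fell to 24.6 ± 2.20 CPM with the PELP1 shRNA, against 130.0 ± 4.45 CPM with the control shRNA (SD, n = 2 each; −2.40 ± 0.06, SE, FDR = 4.43e-44). ANTXR2, a receptor that binds type VI collagen, fell to 11.8 ± 0.66 CPM in the PELP1 shRNA libraries, against 37.8 ± 0.63 CPM in the control shRNA libraries (SD, n = 2 each; −1.68 ± 0.08, SE, FDR = 1.72e-27). The collagen-binding kinase gene DDR1 rose to 87.6 ± 5.98 CPM in the PELP1 shRNA libraries, against 41.5 ± 3.89 CPM in the control shRNA libraries (SD, n = 2 each; 1.08 ± 0.06, SE, FDR = 2.44e-23).

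Of 12 tested matrix partners, 6 fell, 4 rose and 2 did not pass (median −0.25). The fibronectin gene FN1, the most abundant of the 12, was among the 4 that rose (0.51 ± 0.03, SE, FDR = 1.25e-21). It averaged 9999.7 ± 63.5 CPM with the PELP1 shRNA and 7007 ± 79.0 CPM with the control shRNA (SD, n = 2 each). The proteoglycan gene BGN, whose product binds type VI collagen, fell by 3.60 on the log2 scale, HSPG2 (perlecan) by 1.00 and MATN3, a matrilin, by 0.96. MATN3 missed the threshold without control shRNA replicate 1 (adjusted p = 0.0789). Of 19 tested genes for collagen folding, modification and export, 16 fell, 1 rose and 2 missed the threshold (median −0.46). The prolyl hydroxylase genes P3H1 (−1.16 ± 0.05, SE), P4HA3 (−0.83 ± 0.20, SE) and P4HA1 (−0.75 ± 0.06, SE) fell most. Scaling by upper quartile or by library size alone left 13 of the 19 lower, an assumed biological variation of 10% left 10, and 20% left 1. Of 10 tested genes of collagen processing and turnover, 8 fell, 1 rose and 1 did not pass (median −0.48). The matrix metalloproteinase genes MMP9, MMP1 and MMP14 fell by 3.40, 2.18 and 1.17 on the log2 scale. At an assumed variation of 20%, 3 of these 10 genes were called lower and 0 higher, beside 2 lower and 1 higher of the 12 matrix partners and 3 lower and 1 higher of the 10 receptors.

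Markers of other cell types were measured beside these genes. Summed over 8 fibroblast and mural cell markers the level was 224.2 and 220.45 CPM in the PELP1 shRNA libraries, against 416 and 434 CPM in the control shRNA libraries. Of these 8 genes 5 fell, 2 rose and 1 did not pass, none was at 0 in all libraries, and THY1 held most of the sum with 198 ± 2.45 CPM with the PELP1 shRNA and 387 ± 13.1 CPM with the control shRNA (SD, n = 2 each). PDGFRA fell by 2.21 on the log2 scale, while LUM rose to 5.20 CPM with the PELP1 shRNA, against 1.94 CPM with the control shRNA. Summed over 6 epithelial markers the level was 852 and 829 CPM with the PELP1 shRNA, against 567 and 582 CPM with the control shRNA, nearly all of it KRT18 and KRT8. All 3 genes of this list with enough counts to test rose (median 1.01), and DESeq2 called 2 of them. The third beside KRT18 and KRT8 was EPCAM, at 0.78 CPM with the PELP1 shRNA and 0.25 CPM with the control shRNA (1.65 ± 0.48, SE, FDR = 0.0022). In the same list 4 genes averaged under 1 CPM. Among those not tested, CDH1 and KRT14 had 0 counts in the PELP1 shRNA libraries, against 3 and 2, and 9 and 8, in the control shRNA libraries. Summed haematopoietic and endothelial markers were at 61.9 and 61.8 CPM in the PELP1 shRNA libraries, against 61.1 and 59.4 CPM in the control shRNA libraries. The macrophage marker CD68 held most of that sum, with 57.8 ± 0.47 CPM with the PELP1 shRNA and 58.1 ± 0.61 CPM with the control shRNA (SD, n = 2 each). The endothelial markers in it were low and moved in both directions. PECAM1 rose to 1.83 ± 0.08 CPM with the PELP1 shRNA, against 0.37 ± 0.14 CPM with the control shRNA (SD, n = 2 each; 2.31 ± 0.35, SE, FDR = 5.26e-08). VWF rose to 1.55 CPM with the PELP1 shRNA, against 0.72 CPM with the control shRNA (1.12 ± 0.31, SE, FDR = 0.00164), a call lost with DESeq2 (adjusted p = 0.0582), without PELP1 shRNA replicate 1 (0.0569) and without control shRNA replicate 2 (0.0561). CDH5 fell to 0.28 CPM with the PELP1 shRNA, against 0.74 CPM with the control shRNA (−1.39 ± 0.45, SE, FDR = 0.00701). It was the 1 gene of this list called lower, and that count was 0 with DESeq2, without PELP1 shRNA replicate 1, without control shRNA replicate 1 and at an assumed variation of 20%. The part of these shifts in the collagen values was not tested.

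For each type VI chain, the genes with the most similar profile over the 4 libraries were sought among 4974 others with a mean of at least 50 CPM, by the distance between log2 CPM centred on the gene's mean. With 2 groups and close duplicates this mostly finds changes of the same size. The nearest to COL6A1 were SLC9A3R2, CRIM1 and LZTS1 (distances 0.088, 0.095 and 0.123), with log2 fold changes of −1.63, −1.48 and −1.52. The 2 nearest to COL6A2 were HNRNPUL1 and the Notch ligand gene JAG1 (0.022 and 0.072), with −1.85 and −1.82. COL6A3 was nearest to ANKRD52, the caveolin gene CAV1 and the fatty acid elongase gene ELOVL1 (0.026, 0.032 and 0.032), with −0.77, −0.77 and −0.75.

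The calls of the 9 genes held with each library left out in turn, under which COL12A1 ranged from −2.41 to −2.38 and COL8A1 from −2.03 to −1.74. With an assumed biological variation of 20%, the calls of COL6A3, COL7A1, COL16A1 and COL18A1 were lost (adjusted p = 0.0835, 0.0728, 0.472 and 0.655), and with 10% that of COL18A1 (adjusted p = 0.067).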

How the data were processed

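The 4 Daoy libraries were sequenced from one end (50 bp), per the labels' protocols. Alignment used TopHat2 2.0.8b and hg19, and HTSeq did the counting, per the submitters' processing notes. What the authors deposited is a raw read count for each gene symbol, not normalised. No source used here gives the annotation or the strand setting. Each file held 5 further rows that name no gene. They were left out. The largest, for alignments that were not unique, held 29.38% to 30.82% of all counts in each file. Genes with near-identical copies therefore have partial counts.

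Groups were compared with edgeR 4.0.16 (R 4.3.3), by its quasi-likelihood F test, with TMM scaling (factors 0.967 to 1.033), robust dispersions, filterByExpr (14972 genes) and Benjamini-Hochberg adjustment over all genes tested. It held the shRNA group alone. glmTreat tested against 1.5-fold. SE is the absolute log2 fold change over the root of F. Library sizes were 24052542 to 29221640 counts. DESeq2 1.42.0, limma-voom (limma 3.58.1), other scalings and filters, left-out libraries, a replicate block and assumed variation of 10% and 20% were the alternatives. Duplicates differed by more than counting noise (chi-square per degree of freedom 2.37 and 2.47), so they were not taken as copies of 1 library. This does not show that they came from separate cultures.

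Gene models came from GENCODE lifted to GRCh37 and promoter windows from RefSeq (GRCh38.p14). Promoter coordinates are therefore of another build than the gene coordinates. The 9 genes and all lists were chosen with earlier results of these data known. Named genes were the 9, PELP1, any tested collagen gene, and from each other list up to 3 called genes that changed most, at a mean of at least 1 CPM. SOX2, ZIC1, OTX2, GLI1, ATOH1, EPCAM, CDH1, KRT14, CD68, CDH5, ANTXR1, FN1 and SLC19A1 fall outside that rule and were named after their values were seen.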

Additional observations from a re-analysis of the deposited data

How the results depend on the processing

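The count of 8 lower members, 0 higher members and 6 past 1.5-fold was the same with DESeq2 (1.5-fold not run there), limma-voom (likewise), upper-quartile factors, library size alone, both filters and each library left out. An assumed biological variation of 20% left 4 lower members and 1325 of 8700 genes called, and 10% left 4363 genes. At 20% COL6A3 (−0.76, adjusted p = 0.0835), COL7A1 (−0.78, 0.0728), COL16A1 (−0.46, 0.472) and COL18A1 (−0.34, 0.655) missed the threshold, as did COL18A1 at 10% (−0.34, 0.067); a wider assumed spread is what that alternative sets. With the replicate number as a block, 8161 genes and the same 8 members were called (COL6A2 at −1.86). The numbers do not pair the libraries by any label, and deviations of same-numbered libraries correlated at 0.011. Left-out libraries gave 7420 to 7757 genes called, and a lone library was then assumed to vary like the other group. Ratios per kilobase moved with the length of the longest transcript, by construction. In the PELP1 shRNA and control shRNA libraries, COL6A1 over COL6A2 became 1.38 and 1.12, COL6A3 over COL6A1 0.932 and 0.533, and COL6A3 over COL6A2 1.28 and 0.599. COL12A1 over COL16A1 became 1.33 in the control shRNA libraries. COL8A1, with 107 to 413 counts, had the widest SE among the 9 genes.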
